A study of Rattus norvegicus with 8 samples.

Results

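Type I interferon response genes were followed in the spinal cord of 8-week-old female Wistar rats, 7 days after surgery. The 37 genes were taken from a fixed list by symbol, and each symbol occurred among the 32623 genes of the count tables. Rats of the mild, moderate and severe groups had received a 10 g weight dropped from 12.5 mm, 25 mm and 50 mm onto the exposed thoracic cord. The sham group had laminectomy without the weight, so all groups had undergone surgery and no unoperated cord was included. Each group had 2 droplet libraries, called replicates 1 and 2. The paper states that 8 spinal cords were sequenced, the same number as the libraries, and the labels do not say how many animals gave a library. P-values therefore measure the spread between libraries, which the labels do not tie to single animals.

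Type I interferons are secreted after a cell senses foreign or misplaced RNA or DNA. They bind the receptor Ifnar1/Ifnar2, and the kinases Jak1 and Tyk2 then activate a transcription factor complex that includes Stat2 and Irf9. This complex binds interferon-stimulated response elements and switches on a shared set of antiviral genes. Microglia, the resident macrophages of the cord, and macrophages derived from blood monocytes both respond to interferon, and interferon-responsive microglia are a known state in injured and ageing nervous tissue. The 37 members were ordered here by role. The groups are signalling and feedback (7 genes), sensing of RNA and DNA (8), antiviral effectors (8), other induced genes (8) and genes that interferon gamma also induces strongly (6: Psmb8, Psmb9, Gbp2, Gbp5, Igtp and Ifi47).

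The promoters of the members are shown first because the response element is the feature through which the pathway acts. RefSeq promoters on build GRCr8, from 250 bases before to 50 bases after the start of each gene, were matched by symbol for 29 of the 37 members. The response element core was searched on both strands as GAAA, any 2 bases, GAAA, which reads TTTC, any 2 bases, TTTC on the other strand. It was found for 18 of the 29 genes (62.1%), beside 3.92% of all 33469 promoters of the table. A core of the gamma-activated site, TTC, any 3 bases, GAA, was found for 7 of the 29 genes (24.1%), beside 8.87% of all promoters. The windows of 7 members described below follow, 5′ to 3′ on the strand of the gene and ending at the gene's start or before it, with the response element core in capitals.
Irf7, chr1:205800053-205800122, minus strand: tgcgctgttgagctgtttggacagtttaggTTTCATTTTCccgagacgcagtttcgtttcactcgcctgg
Ifit3, chr1:241527252-241527321, plus strand: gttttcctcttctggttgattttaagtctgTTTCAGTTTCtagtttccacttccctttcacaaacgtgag
Rsad2, chr6:48788228-48788297, minus strand: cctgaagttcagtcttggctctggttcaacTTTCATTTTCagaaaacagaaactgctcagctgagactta
Bst2, chr16:18255053-18255128, minus strand: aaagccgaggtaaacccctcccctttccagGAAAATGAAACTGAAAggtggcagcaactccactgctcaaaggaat
Oas1a, chr12:41330395-41330465, plus strand: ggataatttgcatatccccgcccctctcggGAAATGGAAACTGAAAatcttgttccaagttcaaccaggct
Eif2ak2, chr6:21941108-21941153, plus strand: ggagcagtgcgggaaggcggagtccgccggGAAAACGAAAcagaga
Gbp2, chr2:234005666-234005726, plus strand: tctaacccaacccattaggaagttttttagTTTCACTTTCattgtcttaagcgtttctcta
Bst2 and Oas1a each hold 2 overlapping cores, and the other 5 windows hold 1. The matched windows of Mx1, Slfn4, Oasl and Herc6 held no match to these letters. A match is a description of the sequence and was not tested for function.

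The libraries held between 31482153 and 131045446 UMIs, the unique identifiers that mark single RNA molecules, and 55460 of 68658 cells were kept after quality control. Cells were assigned to types one by one from marker genes that include no member, and 27624 cells were called macrophages/microglia. Their median depth was 5237 UMIs per cell in sham replicate 1 and reached 16371 in severe replicate 2. The sham libraries differed in makeup. Sham replicate 1 held 4652 neutrophils and 654 macrophages/microglia, whereas sham replicate 2 held 1 neutrophil and 2094 macrophages/microglia. No pair of libraries shared more than 25 cell barcodes. The 145 cells gated as neurons had 1 of their 6 markers among the 10 leading genes. Stmn2 and Gap43 stood there beside genes of other cells such as Tagln and Fbln2. These cells were left out, which leaves 13 described types. Astrocytes and plasmacytoid dendritic cells were kept but also had only 1 of 7 markers among their 10 leading genes. B cells had 2 of their 6 and 2 markers of other types. That count alone thus does not set the neurons apart. Levels are given as CPM, counts per 1e+06: the UMIs of a gene over all cells of that type from a given library, relative to the UMIs of all genes in the same cells. The kit counts transcript 3′ ends, so CPM is not divided by gene length.

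The kept cells held 794773 UMIs of the 37 members, and 412717 of these lay in macrophages/microglia. Every member had at least 1 UMI in macrophages/microglia of every library. By the mean over the 8 libraries the highest levels belonged to Ifi27, a mitochondrial membrane protein of apoptosis, at 519 CPM, and Bst2, which tethers budding virus to the cell surface, at 160.3 CPM. Psmb9, a subunit of the immunoproteasome, followed at 122 CPM, Slfn4, a Schlafen family gene of myeloid cells, at 52.0 CPM, and the GTPases Ifi47 and Gbp2 at 42.8 and 38.7 CPM.

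The members were spread over many cell types. By mean CPM over libraries with at least 20 cells, the highest type was mural cells for 9 members, neutrophils for 8, B cells for 6, endothelial cells for 5, plasmacytoid dendritic cells for 4, T cells/NK cells for 3, and conventional dendritic cells and erythroid cells for 1 each. Macrophages/microglia were the highest type for no member, and were second to neutrophils for Oasl and to T cells/NK cells for Gbp5. Mural cells and B cells had only 3 libraries each, so their places rest on few cells. The means are also not over the same libraries. Mural cells had both sham libraries and severe replicate 2, B cells had sham replicate 1 and both severe libraries, and endothelial cells had the sham and severe libraries. In mural cells all members summed to 3534 and 3565 CPM in sham and 2712 in severe replicate 2. Comparisons within libraries follow below.

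**Figure D1:**
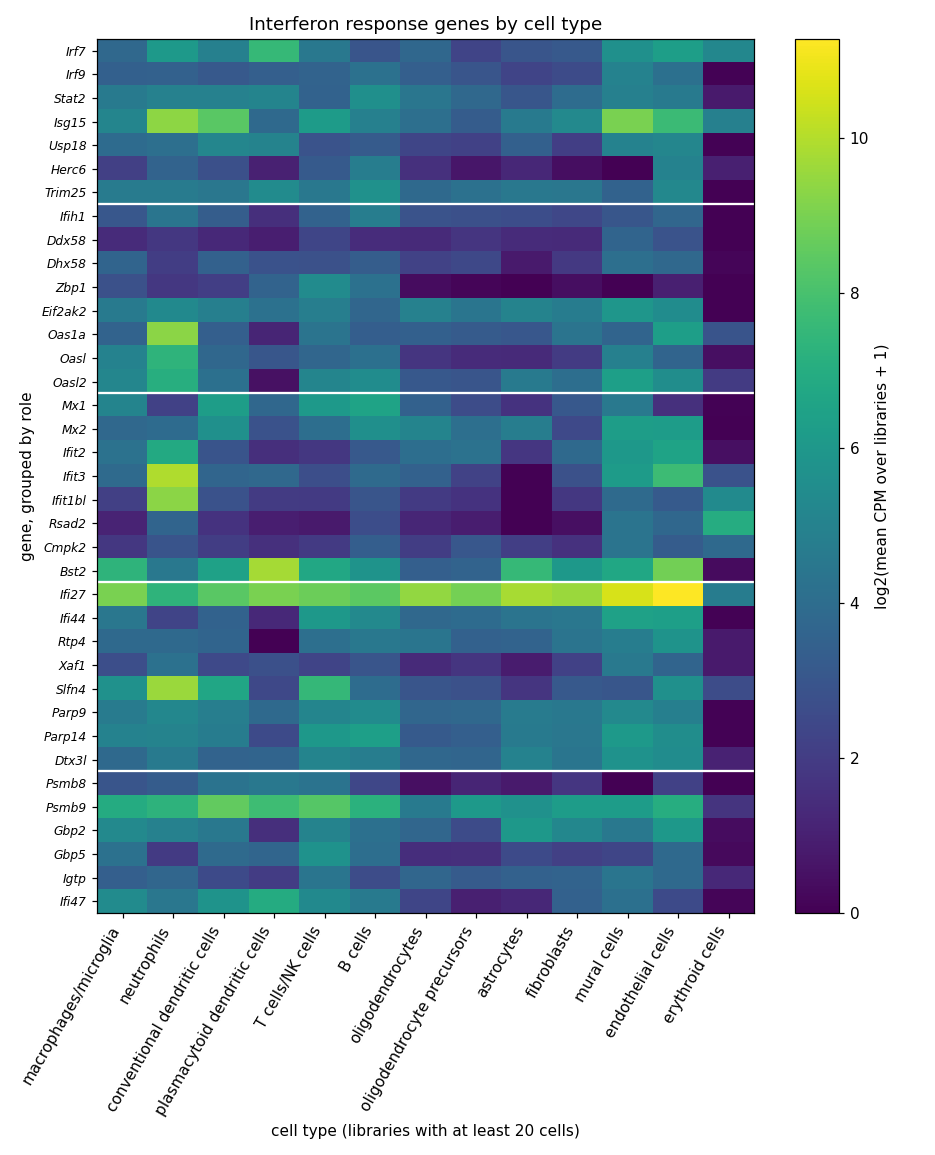
Heat map of the mean level of each of the 37 members (rows, grouped by role) in 13 cell types (columns), as log2 of the mean CPM plus 1, the mean taken over libraries with at least 20 cells of the type; lighter is higher. Ifit3, Isg15, Slfn4, Oas1a and Ifit1bl stand out in neutrophils, Irf7 and Bst2 in plasmacytoid dendritic cells and Ifi27 in endothelial cells.

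Neutrophils held the highest levels of 8 members, led by Ifit3, Slfn4, Isg15, Ifit1bl and Oas1a. Ifit3, which binds foreign RNA together with other Ifit proteins, stood at 1427 CPM in neutrophils of sham replicate 1, 1013 and 852 in mild, 767 and 993 in moderate and 892 and 1007 in severe libraries. Isg15, the ubiquitin-like modifier of the response, stood at 2067 CPM in sham replicate 1, 160.0 and 287 in mild, 726 and 367 in moderate and 459 and 506 in severe libraries. Ifit3 thus varied less than 2-fold across libraries, while Isg15 in sham replicate 1 was above all 6 injured libraries. Mx1, a GTPase that blocks viral replication, lay between 0 and 16.4 CPM in the same neutrophils.

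Compared with macrophages/microglia within libraries, 23 members were higher and 6 lower in neutrophils, beside 33.5% of all 12121 genes higher and 32.8% lower. The median log2 fold change was 0.89 over the members and 0.01 over all genes. Without sham replicate 1 the split was 13 higher and 8 lower, with medians of 0.28 and -0.38, and with library size only it was 16 and 7, with medians of 0.30 and -0.51. Ifit1bl, an Ifit family gene, had a log2 fold change of 8.39 ± 0.48 (SE; edgeR adjusted p = 2.02e-23). Ifit3 followed with 6.84 ± 0.51 and Oas1a, a sensor of double-stranded RNA, with 6.21 ± 0.32. Mx1 (-2.88 ± 0.63), Bst2 (-2.36 ± 0.29) and Ifi27 (-1.53 ± 0.33) were the largest falls. The direction therefore differed between members of the same role, since Ifit3 and Mx1 are both antiviral effectors.

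In endothelial cells, which line blood vessels, 13 members were higher than in macrophages/microglia and 5 lower (18.4% and 24.6% of all genes). Ifit3 stood at 394 and 219 CPM in the sham libraries and at 103 and 142 in the severe ones, and its log2 fold change over macrophages/microglia was 3.15 ± 0.50. Rsad2 (viperin, an antiviral enzyme; 2.29 ± 0.57) and Oas1a (2.24 ± 0.33) came next, and Zbp1, a sensor of Z-form nucleic acid (-4.59 ± 0.89), Mx1 (-4.56 ± 0.78) and Ifi47 (-3.72 ± 0.65) were lowest. Ifi27 reached 3733, 1849, 1929 and 2449 CPM in these 4 libraries. In mural cells Isg15 rose by 2.24 ± 0.61, the only member of 37 higher there (10.6% of all genes), while 8 were lower (19.9%). With library size only, which moved the median of all genes there from -0.63 to 0.42, the split turned to 6 higher and 1 lower. That scaling called 3330 of 12121 genes in either direction. Of those lower in the first fit, Psmb8, Zbp1 and Herc6 had 0 UMIs in the 3 libraries of mural cells.

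Plasmacytoid dendritic cells, known as producers of type I interferon, had a narrow set of high members. Irf7, the factor that drives interferon genes themselves, stood at 423 CPM in mild replicate 1, 95.1 and 185 in moderate and 149.5 and 80.0 in severe libraries, and its log2 fold change over macrophages/microglia was 3.92 ± 0.39. Bst2 (2.04 ± 0.25) and Ifi47 (1.28 ± 0.41) were also higher. In all, 4 members were higher and 13 lower, beside 14.5% and 28.1% of all genes. Oasl2, a relative of the RNA sensors of the OAS family (-6.09 ± 0.90), and Gbp2 (-5.51 ± 1.14) had the largest falls among genes with a UMI in these cells. Rtp4 had none in the 5 libraries. With library size only the split was 7 higher and 10 lower, with the median of all genes at 0.28 in place of -0.40.

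Conventional dendritic cells had 7 members higher and 7 lower (15.0% and 24.1% of all genes). Without sham replicate 1, 7 were higher and 13 lower of 35 tested, where 5030 of 11629 genes were called in either direction. Isg15 (3.70 ± 0.48), Slfn4 (2.07 ± 0.34) and Psmb9 (1.46 ± 0.26) rose most, and Igtp (-1.64 ± 0.43), Oasl2 (-1.25 ± 0.34) and Ifi44 (-1.25 ± 0.36) fell most. Isg15 in these cells ranged from 101 CPM in moderate replicate 2 to 1012 in mild replicate 2, so the level differed 10-fold between libraries of the same cell type. T cells/NK cells had 14 members higher and 4 lower (21.9% and 29.8%). Without sham replicate 1 the split was 12 and 7 of 35 tested, where 5981 of 11629 genes were called in either direction. In the fit of all libraries Zbp1 (3.0 ± 0.30), Slfn4 (2.42 ± 0.35) and Herc6, the rodent ligase of Isg15 (1.60 ± 0.37), rose most. Ifit2 (-2.33 ± 0.58), Oasl (-1.69 ± 0.47) and the Isg15 protease Usp18 (-1.49 ± 0.46) were lowest there. In B cells 1 member was higher, Herc6 (1.79 ± 0.55), and 4 were lower (9.27% and 23.9%), with Gbp2 at -2.69 ± 1.06, Slfn4 at -2.63 ± 0.79 and Bst2 at -2.28 ± 0.42. With library size only the split in B cells was 6 higher and 3 lower, where 3719 of 12121 genes were called in either direction. Without sham replicate 2 it was 3 and 3, where 3947 of 11982 genes were called.

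Glial cells of the oligodendrocyte lineage and fibroblasts held less of most members than macrophages/microglia. In oligodendrocyte precursors 32 members were lower and 1, Cmpk2 (0.88 ± 0.34), was higher, beside 33.3% and 31.7% of all genes. In oligodendrocytes 24 were lower and 1, Mx2 (1.03 ± 0.34), was higher (41.6% and 29.3%). In fibroblasts 20 were lower and 1, Rtp4 (0.73 ± 0.31), was higher (28.4% and 29.0%). Zbp1 and Oasl were among the 3 largest falls in all 3 types, at -5.25 ± 0.45 and -4.83 ± 0.45 in the precursors, -4.56 ± 0.41 and -4.26 ± 0.43 in oligodendrocytes and -4.37 ± 0.45 and -3.62 ± 0.42 in fibroblasts. The third was Ifi47 in the precursors (-5.48 ± 0.46), Bst2 in oligodendrocytes (-4.34 ± 0.26) and Herc6 in fibroblasts (-3.02 ± 0.43). In astrocytes 13 were lower and 0 higher (21.6% and 19.0%), and Ifit3 and Zbp1 had 0 UMIs in their 3 libraries. Ifi47 (-5.54 ± 1.28) had the largest fall among genes with a UMI there. With library size only the higher and lower members numbered 3 and 9 in astrocytes. They numbered 3 and 18 in oligodendrocytes and 4 and 18 in fibroblasts. That scaling moved all genes too. Their median went from -0.23 to 0.45 in astrocytes, where 5218 of 12121 genes were called in either direction. In fibroblasts it went from -0.04 to 0.28, where 7245 were called. The split in oligodendrocytes is given without that share.

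In erythroid cells, the red cell lineage, Rsad2 stood out. Rsad2 stood at 210.4 CPM in sham replicate 1 and at 103 and 62.8 in the severe libraries, above every other type. In these cells 8 members were higher than in macrophages/microglia and 3 lower, beside 5.72% and 19.8% of all genes. The largest rises after Rsad2 were Ifit1bl (8.46 ± 0.57) and the nucleotide kinase Cmpk2 (7.13 ± 0.49). Bst2 fell (-3.57 ± 0.62), and Eif2ak2 and Trim25, an activator of Ddx58, had 0 UMIs in the 3 libraries. The fold depended on the scaling. The log2 fold change of Rsad2 was 10.64 ± 0.51 with TMM factors and 6.97 when scaled by the total alone, and that scaling gave 4 members higher and 30 lower. It called 9884 of all 12121 genes, with a median of -5.13 over all genes and -5.27 over the members, so the members lay near all genes.

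Within macrophages/microglia, the response was higher in the sham libraries than after injury. The summed level of the 29 members other than the interferon-gamma type genes, Bst2 and Ifi27 was 924 and 878 CPM in the sham libraries. It was 373 and 329 in mild, 438 and 295 in moderate and 336 and 420.4 in severe libraries, so the groups of sham and injured libraries did not overlap. Over all 37 members the sums were 2384 and 1990 CPM in sham and 902 to 1467 after injury. Both sham libraries lay above all 6 injured ones for 23 of the 37 members (62.2%), beside 16.9% of 10527 genes, and below them for 1 (2.70%), beside 8.88%. The member below was Usp18. The 23 were all 8 antiviral effectors, 5 of 8 sensors, 5 of 8 other induced genes, 4 of 7 signalling genes and 1 of 6 interferon-gamma type genes.

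**Figure D2:**
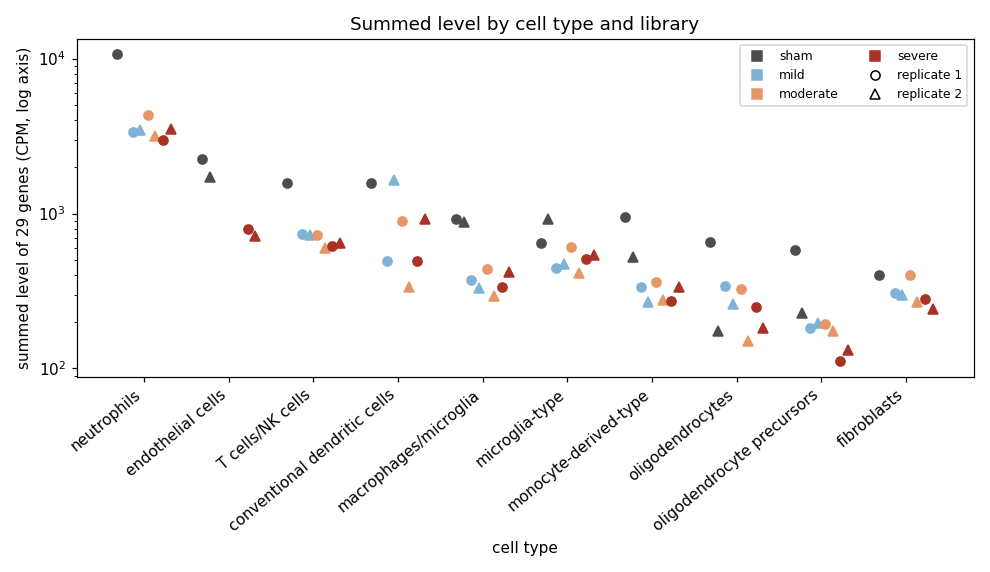
Summed level of the 29 members (CPM, log axis) in each library with at least 20 cells, for 8 cell types and the microglia-type and monocyte-derived-type subsets; colours mark the groups, and circles and triangles mark replicates 1 and 2. In macrophages/microglia the sham points lie at 924 and 878 CPM and the injured ones between 295 and 438.

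Among signalling and feedback genes, Isg15, Irf7, Irf9 and Herc6 had both sham libraries on top. Isg15 stood at 79.2 and 85.8 CPM in the sham, 21.4 and 16.3 in mild, 18.7 and 8.52 in moderate and 16.9 and 28.3 in severe libraries. Irf7 stood at 39.1 and 20 CPM in the sham, 11.2 and 7.17 in mild, 6.76 and 2.55 in moderate and 10.3 and 7.0 in severe libraries. Neither gene overlapped between sham and injury. Herc6 was at 8.47 and 8.72 CPM in sham and between 0.999 and 2.66 after injury. Stat2, by contrast, stood at 23.1 and 30 CPM in sham and between 15.1 and 29.3 after injury, with overlap.

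Antiviral effectors had both sham libraries on top throughout, with narrow gaps in Ifit3 and Ifit1bl. Ifit1bl had only 56 UMIs in sham replicate 2, and its level in sham replicate 1 is set beside neutrophil RNA below. Mx1 stood at 63.6 and 97.2 CPM in the sham, 20.7 and 19.9 in mild, 19.7 and 6.89 in moderate and 15.4 and 23.0 in severe libraries. Rsad2 stood at 3.39 and 3.58 CPM in sham and between 0.154 and 1.06 after injury. Ifit3 stood at 33.3 and 23.1 CPM in the sham, 9.83 and 4.33 in mild, 5.64 and 6.17 in moderate and 5.99 and 22.0 in severe libraries, so severe replicate 2 came close to sham replicate 2. Bst2 stood at 421 and 265 CPM in the sham, 51.1 and 23.9 in mild, 168 and 57.7 in moderate and 158 and 138 in severe libraries. Its injured libraries thus differed among themselves by up to 7-fold, with the mild ones lowest.

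Other induced genes and sensors were mixed. Slfn4 stood at 203 and 105 CPM in the sham, 15.2 and 5.12 in mild, 22.0 and 9.19 in moderate and 36.6 and 19.8 in severe libraries. Ifi27 overlapped between sham (801 and 531 CPM) and injury (339 to 652). Eif2ak2, the RNA-activated kinase PKR, stood at 37.4 and 39.3 CPM in the sham, 18.2 and 18.3 in mild, 24.0 and 25.4 in moderate and 16.4 and 14.8 in severe libraries. Oasl, an OAS family protein without the enzyme activity, went the other way in the severe group, at 52.2 and 111 CPM, beside 19.0 and 12.8 in the sham and 10.3 to 16.6 in the mild and moderate libraries.

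Of the interferon-gamma type genes only Ifi47 had both sham libraries on top. Gbp2 stood at 25.8 and 54.1 CPM in the sham, 25.4 and 21.8 in mild, 27.2 and 47.2 in moderate and 46.8 and 61.3 in severe libraries, and the groups overlapped. Gbp5, a GTPase that promotes inflammasome assembly, stood at 5.08 and 13.7 CPM in the sham, 4.49 and 5.61 in mild, 9.76 and 20.4 in moderate and 25.8 and 55.3 in severe libraries. Psmb9 lay at 122 and 142 CPM in sham and between 97.3 and 159.6 after injury. Ifi47 stood at 51.4 and 90.9 CPM in sham and between 11.9 and 47.7 after injury.

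**Figure D3:**
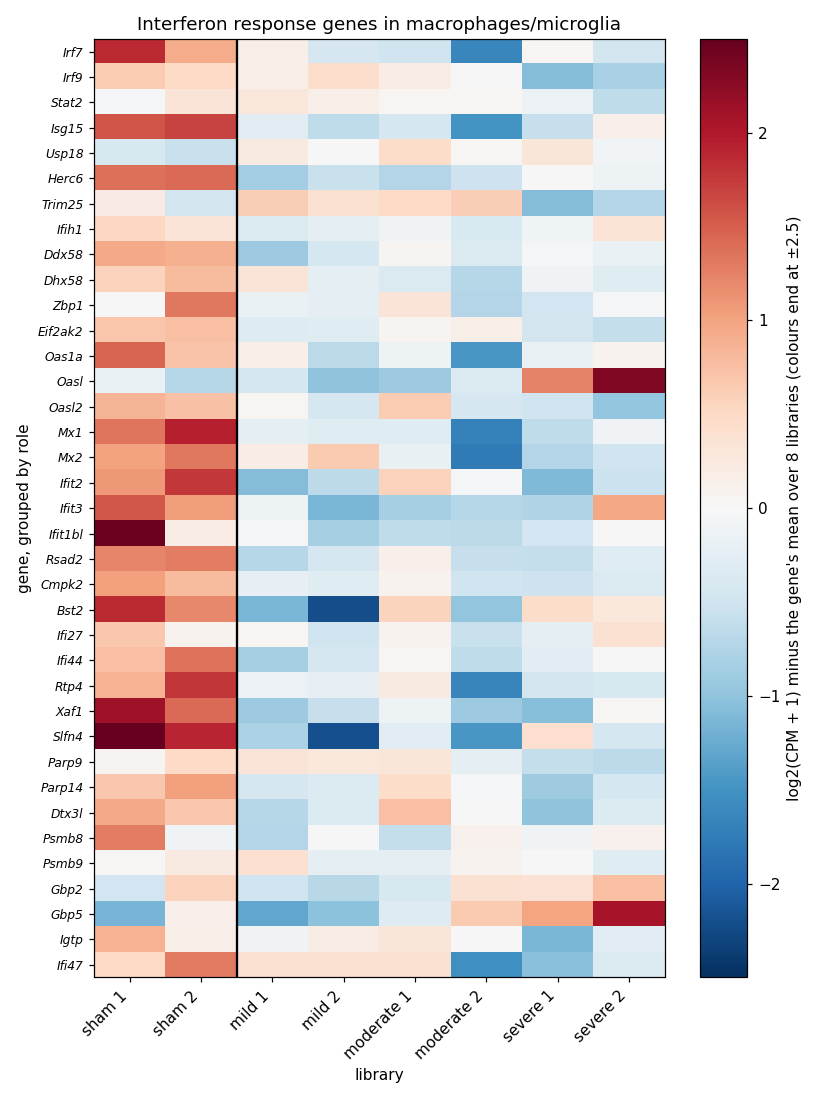
Heat map of the 37 members (rows, grouped by role) in macrophages/microglia of the 8 libraries (columns, a line parting sham from injury), as log2(CPM + 1) minus the gene's mean over the libraries; red is above and blue below that mean. Isg15, Mx1, Rsad2, Slfn4 and Bst2 are red in both sham columns, and Oasl and Gbp5 are red in both severe columns.

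Tested across 13254 genes with edgeR, 10 members were lower in the mild group than in sham and 0 higher, beside 3.52% of all genes lower and 4.45% higher. Those lower were Slfn4 (log2 fold change -3.76 ± 0.65, SE; adjusted p = 0.0206), Rsad2 (-3.52 ± 0.80), Bst2 (-3.05 ± 0.55), the apoptosis factor Xaf1 (-2.93 ± 0.61), Herc6 (-2.69 ± 0.38) and the RNA sensor Ddx58, or RIG-I (-2.68 ± 0.59). Ifit2 (-2.40 ± 0.45), Isg15 (-2.02 ± 0.43), Ifi44 (-1.71 ± 0.40) and Eif2ak2 (-0.97 ± 0.23) completed the list. The values of Mx1 (-1.91 ± 0.52, adjusted p = 0.0584), Ifit3 (-1.85 ± 0.60, 0.0883), Irf7 (-1.52 ± 0.49, 0.085) and Gbp2 (-0.71 ± 0.45, 0.315) did not pass. By role, 3 of 8 antiviral effectors, 3 of 8 other induced genes, 2 of 8 sensors, 2 of 7 signalling genes and 0 of 6 interferon-gamma type genes were lower. The median over the members was -1.16, beside -0.01 over all genes.

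Each fit estimated 1 spread from all its libraries, so leaving any library out also left less to estimate it from. The effect of this on the counts was not tested. The number of members called changed when single libraries were left out, also libraries of groups not compared. It was 0 without mild replicate 1 or without mild replicate 2, 6 without moderate replicate 1, severe replicate 1, severe replicate 2 or sham replicate 2, and 12 without sham replicate 1. A fit of the sham and mild libraries alone also called 0 members, where 23 of 37 had an unadjusted p under 0.05, while DESeq2 called 17. The calls over all genes moved too, from 1056 to 18 and 8 without mild replicate 1 and mild replicate 2, to 1991 without sham replicate 1, to 0 of 12397 with the 2 groups alone and to 2339 with DESeq2.

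In the moderate group 5 members were lower than in sham and 0 higher, beside 0.958% of all genes lower and 2.11% higher. They were Slfn4 (-3.17 ± 0.63; edgeR adjusted p = 0.0426), Herc6 (-2.60 ± 0.37), Mx1 (-2.55 ± 0.53), Isg15 (-2.53 ± 0.44) and Irf7 (-2.52 ± 0.50). Rsad2 (-2.30 ± 0.75, adjusted p = 0.122), Ifit3 (-2.15 ± 0.61, 0.0943), Eif2ak2 (-0.57 ± 0.23, 0.18) and Gbp2 (-0.10 ± 0.45, 0.92) did not pass. The median was -1.18 over the members and 0.02 over all genes. The count was 0 without moderate replicate 2, 1 without mild replicate 1, mild replicate 2, severe replicate 1 or severe replicate 2, and 8 without sham replicate 1. It was 0 with only the 2 groups compared (21 members at an unadjusted p under 0.05) and 16 with DESeq2. Over all genes 406 were called, 10 without moderate replicate 2, 1332 without sham replicate 1, 0 with the 2 groups alone and 1491 with DESeq2.

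In the severe group 2 members were called lower than in sham and 3 higher, each close to the share over all genes. Of the 37, 30 had a log2 fold change below 0 and 7 above, beside 53.8% of all genes below 0. Ifit2 (-1.93 ± 0.44; edgeR adjusted p = 0.0347) and Irf9 (-1.20 ± 0.28), the DNA-binding part of the interferon-activated complex, were lower, beside 3.58% of all genes. Oasl (2.92 ± 0.44), Gbp5 (2.51 ± 0.63) and Usp18 (1.15 ± 0.28) were higher, beside 5.81%. Isg15 (-1.36 ± 0.43, adjusted p = 0.078), Irf7 (-1.22 ± 0.49, 0.137), Ifit3 (-0.44 ± 0.59, 0.642), Mx1 (-1.59 ± 0.51, 0.0838), Rsad2 (-2.54 ± 0.79, 0.075), Eif2ak2 (-0.81 ± 0.23, 0.061) and Gbp2 (0.88 ± 0.45, 0.224) did not pass. The median was -0.82 over the members and -0.10 over all genes.

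Of these calls Oasl held under every alternative tried, with log2 fold changes from 2.19 without severe replicate 2 to 3.42 without severe replicate 1. The call of Usp18 was lost whichever of the 8 libraries was left out, with log2 fold changes from 1.01 without severe replicate 1 to 1.28 without severe replicate 2. The call of Gbp5 was lost with 7 of the 8 libraries left out in turn, all but sham replicate 2, with log2 fold changes in those fits from 1.78 without severe replicate 2 to 3.0 without severe replicate 1 and adjusted p from 0.0568 to 0.182. It was also lost with only the 2 groups compared (2.49, 0.103). The count of 5 members fell to 1 without mild replicate 1, mild replicate 2, severe replicate 1 or severe replicate 2, to 2 without moderate replicate 1 or moderate replicate 2, and rose to 7 without sham replicate 1. Scaling by the total alone, which moved the median of all genes to -0.60, gave 16 members lower and 2 higher, with 2673 genes called in place of 1244.

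Between the injured groups few members differed. Severe exceeded mild in Oasl (3.06 ± 0.44, edgeR adjusted p = 0.0144) and Gbp5 (3.41 ± 0.65, 0.0392), 2 of 37 beside 1.43% of all genes. Severe exceeded moderate in Oasl alone (3.02 ± 0.43, adjusted p = 0.0161), 1 of 37 beside 0.694%. Between moderate and mild edgeR called 0 members and 0% of all genes higher, with 5 members at an unadjusted p under 0.05 and 0 called by DESeq2. The call of Oasl against mild was lost without mild replicate 1 (3.39, adjusted p = 0.102), mild replicate 2 (2.79, 0.18) or severe replicate 2 (2.32, 0.0564). Its call against moderate was lost without moderate replicate 1 (2.79, adjusted p = 0.146), moderate replicate 2 (3.36, 0.0952) or severe replicate 2 (2.29, 0.0808). The call of Gbp5 against mild was lost without mild replicate 1 (3.25, 0.306), mild replicate 2 (3.60, 0.253), severe replicate 1 (3.88, 0.078) or severe replicate 2 (2.67, 0.13).

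Neutrophil transcripts were present in the sums of macrophages/microglia and were highest in sham replicate 1, which held the most neutrophils. The 8 neutrophil markers summed to 3619 CPM there, 189 in sham replicate 2 and 55.3 to 233 after injury. S100a9 alone stood at 2323 CPM in sham replicate 1 and between 11.2 and 105 in the other 7 libraries. If all S100a9 in those sums came with neutrophil RNA in the ratio seen in neutrophils of sham replicate 1, that RNA would account for 16.3 of 33.3 CPM of Ifit3, 23.7 of 79.2 CPM of Isg15 and 29.8 of 203 CPM of Slfn4. For Ifit1bl it would exceed the measured level, at 118%. For Mx1 and Bst2 it would account for 0.0751% and 0.0571%. The part of neutrophil RNA in the higher sham levels was not tested beyond these values.

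Microglia-type and monocyte-derived-type cells were separated by further markers, with 5121 and 15517 cells in the 8 libraries. The share of the subsets differed strongly, with 1696 microglia-type and 85 monocyte-derived-type cells in sham replicate 2 against 59 and 3054 in moderate replicate 2, so the mix of cells moved with the groups. Within microglia-type cells the 29-gene sum was 648 and 921 CPM in sham and 412 to 612 after injury. Within monocyte-derived-type cells it was 943 and 527 CPM in sham and 269 to 363 after injury. For this sum the sham libraries stayed above the injured ones in both subsets. For the sum of all 37 members they did so in monocyte-derived-type cells only. In microglia-type cells severe replicate 2 reached 2151 CPM beside 1963 and 2052 in sham. Gene by gene, both sham libraries lay above all injured ones for 9 members in microglia-type cells (24.3%, beside 7.87% of 10491 genes). The number was 15 in monocyte-derived-type cells (40.5%, beside 10.2% of 10323 genes) and 23 in all macrophages/microglia.

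In microglia-type cells 3 members were lower in the mild group than in sham (0.203% of all genes), Slfn4 (-4.53 ± 0.56; edgeR adjusted p = 0.0191), Bst2 (-3.20 ± 0.49) and Irf7 (-1.99 ± 0.31). In the moderate group edgeR called 0 (0% of all genes), with 10 members at an unadjusted p under 0.05. In the severe group 0 were lower (0.511%) and 2 were higher (0.762%), Oasl (3.15 ± 0.47) and Gbp5 (3.84 ± 0.66). In monocyte-derived-type cells edgeR called 0 lower in the mild group (0.321% of all genes; 16 members at an unadjusted p under 0.05) and 0 in the moderate group (0.0321%; 15 members). In the severe group Mx1 was lower (-2.16 ± 0.37; 1 member beside 0.762%) and Oasl was higher (2.80 ± 0.59; 1 member beside 1.04%). DESeq2 was not run on the subsets. Oasl was the member called in both subsets after severe injury.

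Set against each other within libraries, 17 of 36 members tested were higher in microglia-type than in monocyte-derived-type cells and 2 were lower. The shares over all 10442 genes were 25.7% and 27.6%. Gbp5 (2.21 ± 0.29, edgeR adjusted p = 2.62e-05), Gbp2 (1.86 ± 0.27), Zbp1 (1.71 ± 0.22), Mx2 (1.65 ± 0.26), Ifit2 (1.42 ± 0.18) and Mx1 (1.31 ± 0.23) led, followed by Xaf1 (1.22 ± 0.17), Herc6 (0.90 ± 0.21), Ifi47 (0.87 ± 0.10) and Oasl2 (0.86 ± 0.19). Gbp2 stood at 23.7 and 57.8 CPM in microglia-type cells of the sham libraries and at 36.5 to 203 after injury, beside 16.3 and 34.7 in sham and 12.4 to 35.3 after injury in monocyte-derived-type cells. It was higher in microglia-type cells in each of the 8 libraries. Eif2ak2 was higher too (0.59 ± 0.08). By role the median log2 fold change ran from -0.06 over 7 antiviral effectors to 0.69 over 8 other induced genes. In sham replicate 1 the 29-gene sum was lower in microglia-type cells, at 648 CPM beside 943. In every other library it was higher in microglia-type cells.

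Usp18, which cleaves Isg15 from proteins and blocks the interferon receptor, went the opposite way (-2.40 ± 0.20, edgeR adjusted p = 4.12e-07), as did Irf7 (-0.61 ± 0.17). Usp18 stood at 0 to 8.81 CPM in microglia-type and at 13.9 to 28.3 CPM in monocyte-derived-type cells, with no overlap over the 8 libraries. Its rise against sham in the severe group of all macrophages/microglia was not called within microglia-type cells, where the log2 fold change was -0.56 (adjusted p = 0.716), and was not called within monocyte-derived-type cells (0.75, adjusted p = 0.313). Isg15 (0.54 ± 0.28, adjusted p = 0.118), Ifit3 (-0.54 ± 0.24, 0.0705) and Oasl (-0.58 ± 0.24, 0.0558) did not pass.

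Single cells were compared after every macrophage/microglia was thinned to 2000 UMIs, so that depth was equal. A cell with at least 5 UMIs over the 29 members was counted as high in the response, which is a limit within a range and not a cell type. Such cells made up 11.9% of 453 cells in sham replicate 1 (exact binomial interval 9.08% to 15.3%) and 8.62% of 2018 cells in sham replicate 2 (7.43% to 9.93%). In the injured libraries the shares were 1.31% and 1.56% in mild, 2.28% and 0.629% in moderate and 2.59% and 3.05% in severe libraries. The intervals of both sham libraries lay above those of all 6 injured ones, and intervals cover counting error only. In sham replicate 1, 14 cells had 5 UMIs and 11 had 4, and in sham replicate 2, 40 had 5 and 54 had 4. Of the 54 high cells in sham replicate 1, 13 were microglia-type and 11 monocyte-derived-type. Among all 453 cells of that library, only 1 with and 7 without an Ifit3 UMI held no neutrophil marker UMI. The part of neutrophil RNA in its share of high cells was not tested.

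The high cells held 63.0% and 50.9% of the 29-gene UMIs in the sham libraries and 8.94% to 32.0% after injury. The remaining cells still averaged 0.960 and 0.945 UMIs in sham beside 0.543 to 0.781 after injury. Over all macrophages/microglia, both the high cells and the rest were thus above the injured libraries. Among microglia-type cells the rest averaged 0.935 and 0.961 in sham and 0.659 to 1.002 after injury, with moderate replicate 1 highest. Among monocyte-derived-type cells the rest averaged 1.13 and 0.722 in sham and 0.479 to 0.661 after injury. By subset the shares of high cells were 6.13% (13 of 212 cells) and 9.11% in sham and 1.97% to 3.39% after injury in microglia-type cells. They were 15.3% (11 of 72) and 5.95% (5 of 84) in sham and 0.367% to 2.18% after injury in monocyte-derived-type cells. Intervals overlapped between sham and injury in both subsets. They were 3.31% to 10.3% in sham replicate 1 and 0.413% to 11.7% in moderate replicate 2 for microglia-type cells. For monocyte-derived-type cells they were 1.96% to 13.3% in sham replicate 2 and 1.57% to 2.95% in severe replicate 2. Cells under 2000 UMIs were left out and numbered 201 and 76 in the sham libraries and 96 to 867 in the injured ones. In oligodendrocyte precursors, a type low in most members, the share was 0% to 3.70%, in fibroblasts 0% to 1.56%, and in oligodendrocytes 7.24% in sham replicate 1, 0% in sham replicate 2 (0 of 35 cells) and 0.735% to 4.84% after injury.

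**Figure D4:**
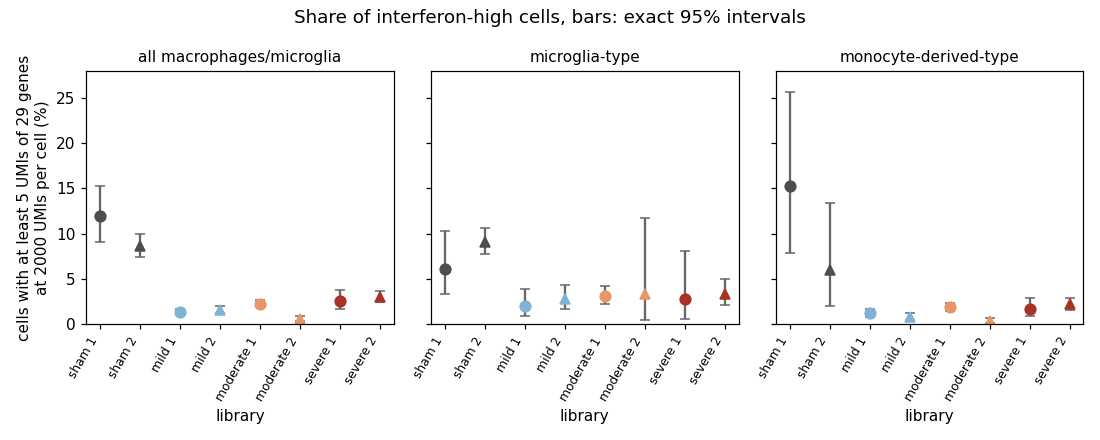
Percent of cells with at least 5 UMIs over the 29 members after thinning to 2000 UMIs per cell (y axis from 0), for each of the 8 libraries, in all macrophages/microglia and in the microglia-type and monocyte-derived-type subsets; bars are 95% exact binomial intervals. In all macrophages/microglia, sham replicates 1 and 2 stand at 11.9% and 8.62%, and the injured libraries between 0.629% and 3.05%.

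Whether the members were found in the same cells was asked with Ifit3 as the reference gene. Thinned macrophages/microglia with at least 1 Ifit3 UMI were compared with those without, within the 6 libraries that held at least 20 such cells (21 to 94 cells a library), and Ifit3 itself was left out. Moderate replicate 2 and severe replicate 1, with 19 and 9 such cells, did not enter. Of 25 members tested, 21 were higher in cells with Ifit3, beside 1.88% of 4522 genes. The count filter took the 2 sides as groups. A member low in cells without Ifit3 was therefore tested only if it was high in cells with it. The 12 members not tested include Ifit3. Among the others, Rsad2 and Dhx58 were higher in cells with Ifit3 in 6 of 6 libraries and Ddx58 in 2. The share of 21 in 25 thus does not measure how many of the 37 members lie in the same cells. Of the 85 genes called higher, 5 belong to a wider list of interferon pathway genes and 59 to neither list.

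Isg15 averaged 633 ± 333 CPM in cells with Ifit3 and 30.2 ± 19.9 in cells without (SD, n = 6 libraries), a log2 fold change of 4.48 ± 0.14 (SE, edgeR adjusted p = 8.42e-27). Mx2 (4.19 ± 0.24), Ifit2 (4.10 ± 0.18), Mx1 (3.76 ± 0.19) and Irf7 (3.68 ± 0.26) came next, and then Slfn4 (3.16 ± 0.17), Rtp4 (2.98 ± 0.28), Oas1a (2.94 ± 0.31), Oasl (2.86 ± 0.27) and Usp18 (2.54 ± 0.36). Each of these 10 was higher in cells with Ifit3 in all 6 libraries. Eif2ak2 rose by 1.75 ± 0.27, Gbp2 by 1.36 ± 0.24 and Bst2 by 0.67 ± 0.15. Stat2 (0.68 ± 0.37), Parp9 (1.09 ± 0.31), Trim25 (1.02 ± 0.30) and Psmb9 (0.56 ± 0.16) did not pass.

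**Figure D5:**
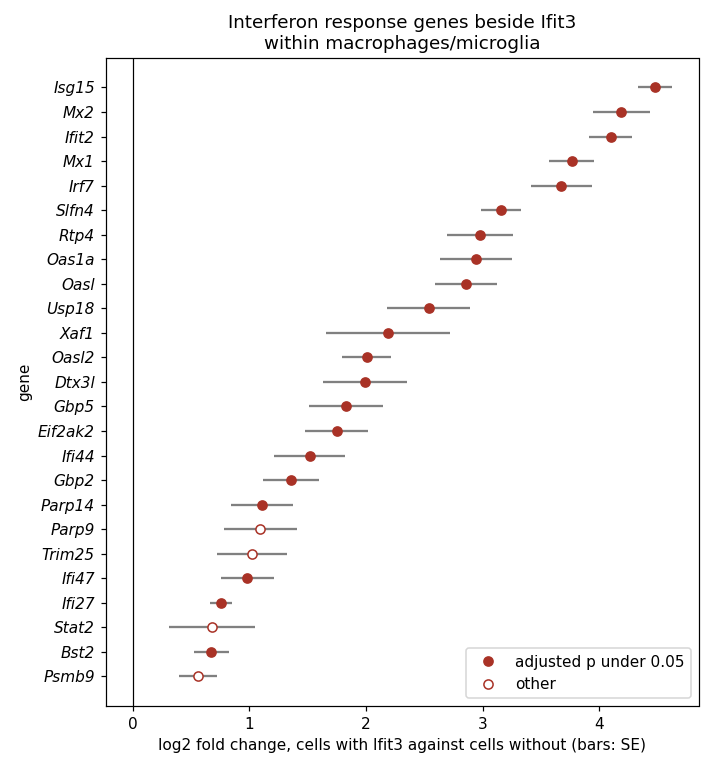
Log2 fold change (x axis) with its SE of each of the 25 tested members in macrophages/microglia with an Ifit3 UMI against those without, within 6 libraries; filled points have an adjusted p under 0.05. Isg15, Mx2 and Ifit2 lie above 4, and Stat2, Parp9, Trim25 and Psmb9 are open.

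Neutrophil markers were also higher in cells with Ifit3 in 5 of these 6 libraries. Their sum was 7905 CPM with and 3442 CPM without Ifit3 in sham replicate 1 and 128 beside 86.4 in severe replicate 2, and in mild replicate 1 it was 231 beside 262. Of 3 neutrophil markers tested, S100a9 was called. G0s2, Lrg1, Ccl6 and the member Slfn4, which were also among the leading genes of the neutrophil gate, were called too. Every cell with a UMI of a neutrophil marker was then left out, an alternative chosen after seeing the data. It leaves 5 libraries, and sham replicate 1 drops out, with 1 such cell left that holds Ifit3. Under the same count filter, 24 of 33 members were higher beside 75 of 7544 genes, with Isg15 at 4.51 and Mx1 at 3.86. The part of neutrophil RNA in these differences was not tested further.

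Outside macrophages/microglia only oligodendrocyte precursors and oligodendrocytes had enough cells in all 8 libraries for a test between groups. In the precursors 1 of 29 tested members was lower in the mild group than in sham (3.03% of all genes), Ifi44 (-1.78 ± 0.46; edgeR adjusted p = 0.041). In the moderate group 3 were lower (4.03%), Oas1a (-2.96 ± 0.80), Isg15 (-2.60 ± 0.62) and Ifi44 (-1.78 ± 0.45). In the severe group 3 were lower (5.84%), Usp18 (-4.33 ± 1.12), Ddx58 (-3.76 ± 1.12) and Irf9 (-3.07 ± 0.83). Ifi44 was called in both the mild and the moderate group. It stood at 42.1 and 19.5 CPM in the sham and between 6.78 and 12.7 after injury, with no overlap. In the precursors both sham libraries lay above all injured ones for 8 of 37 members (21.6%), beside 14.1% of 12129 genes.

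In oligodendrocytes Irf9 was lower in all 3 injured groups, by -1.42 ± 0.33, -2.14 ± 0.39 and -1.85 ± 0.39 (edgeR adjusted p = 0.0282, 0.0159 and 0.0489). Irf9 stood at 25.4 and 12.9 CPM in the sham, 8.33 and 7.99 in mild, 5.37 and 6.11 in moderate and 4.76 and 5.44 in severe libraries. Its sham and injured libraries did not overlap, but sham replicate 2 held only 37 oligodendrocytes, so its level rests on few cells. In oligodendrocytes both sham libraries lay above all injured ones for 3 of 37 members (8.11%), near the 6.98% of 11053 genes. Of 30 members tested, the mild group had 2 lower (5.08% of all genes; Rsad2 at -3.62 ± 1.00 was the other), the moderate group 4 (2.16%; Gbp2 at -3.55 ± 0.60, Rtp4 at -2.35 ± 0.61 and Mx2 at -2.00 ± 0.50) and the severe group 2 (0.584%; Gbp2 at -2.97 ± 0.59). Gbp2 stood at 41.0 and 5.15 CPM in the sham and at 2.15 to 19.7 after injury, so its groups overlapped. The calls rested on single libraries in both types. Without sham replicate 1 every count was 0, and without sham replicate 2 the mild, moderate and severe counts were 7, 9 and 9 in the precursors and 9, 10 and 6 in oligodendrocytes. Leaving out each of the 6 injured libraries gave 0 to 3 in the precursors and 0 to 8 in oligodendrocytes. The counts with a library left out are given without the share over all genes, so they describe only how far the calls moved. In sham replicate 1 the precursors and oligodendrocytes carried 581 and 659 CPM of the 29 members, beside 227 and 175 in sham replicate 2.

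The other types could not be tested between groups because too few libraries held 20 cells. In neutrophils the 29-gene sum was 10662 CPM in sham replicate 1 and 2989 to 4311 in the 6 injured libraries. In T cells/NK cells it was 1577 CPM in sham replicate 1 and 601 to 736 after injury. In endothelial cells it was 2246 and 1716 CPM in the sham and 792 and 718 in the severe libraries. In these 3 types the sham values were the highest, and of the 3 sham replicate 2 was represented only in endothelial cells. In conventional dendritic cells mild replicate 2 was highest, at 1649 CPM beside 1563 in sham replicate 1 and 337 to 927 in the other injured libraries. In fibroblasts sham replicate 1 and moderate replicate 1 both stood at 401 CPM and the other injured libraries between 242 and 307.

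A wider list of 66 interferon pathway genes that are not members was read from the same tests, and 59 of them matched a symbol. Of the ligands, Ifnb1 lay between 0 and 1.74 CPM in macrophages/microglia and was at 0 in sham replicate 1 and both mild libraries. Ifng stood at 12.6 ± 9.87 CPM in T cells/NK cells (SD, n = 7 libraries) and at or below 0.0147 CPM in macrophages/microglia. Of 47 list genes tested in macrophages/microglia, 1 was higher and 3 lower in the mild group, beside 4.45% and 3.52% of all genes. In the moderate group 1 was higher and 1 lower, beside 2.11% and 0.958%. In the severe group 3 were higher and 1 lower, beside 5.81% and 3.58%. Ikbke, a kinase that activates interferon regulatory factors, was higher in all 3 groups (2.74 ± 0.43, 2.89 ± 0.44 and 2.75 ± 0.44 for mild, moderate and severe). It stood at 2.07 and 1.51 CPM in the sham and between 5.46 and 13.3 after injury. Samhd1, which depletes nucleotides needed by viruses, was lower in the mild (-2.38 ± 0.31) and moderate groups (-1.62 ± 0.30).

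The remaining list genes called were Irf2, a repressor of the response, lower in the mild group (-1.13 ± 0.22), Ifnb1, with 0 UMIs there, and Sp100, a nuclear body protein, lower in the severe group (-1.37 ± 0.34). The receptor chain Ifnar2 (1.23 ± 0.30) and the lectin Lgals9 (1.65 ± 0.41) were higher in the severe group. Between the injured groups edgeR called 0 of these 47 genes. Within microglia-type cells it called 0 of 44 list genes against sham in each injured group. Those mild, moderate and severe fits called 30, 0 and 132 of 10363 genes. Within monocyte-derived-type cells it called 0 of 48 list genes in the mild and moderate groups and 1, higher, in the severe group. Those fits called 54, 6 and 224 of 12461 genes. Between the subsets 18 list genes of 43 were higher in microglia-type cells and 12 lower, beside 25.7% and 27.6% of all genes. The interferon lambda receptor Ifnlr1 (2.98 ± 0.39), the chemokine Cxcl10 (2.30 ± 0.24), Gbp4 (1.54 ± 0.17), the RNA sensor Tlr3 (1.38 ± 0.09) and Isg20 (1.36 ± 0.19) were highest, and Ikbke (-2.94 ± 0.22), Plscr1 (-1.80 ± 0.14), Ube2l6 (-1.04 ± 0.16), the inhibitor Socs1 (-1.01 ± 0.25) and the receptor chain Ifnar1 (-0.63 ± 0.10) lowest.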

How the data were processed

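The authors sequenced 8 libraries with the 10x Genomics 3′ chemistry and deposited raw UMI counts per gene and cell. The file headers name Cell Ranger 5.0.1, whereas the study's supplement names another version, and the reference was Rnor_6.0. Following the study's methods, cells with over 10% mitochondrial UMIs and cells beyond 2 SD of the mean UMIs or genes were removed. So was the top 7.7% of doublet scores in each library, a share taken from the study. The study names no doublet tool, and Scrublet gave the scores here. Each cell was gated by marker scores (at least 0.1, at least 1.5 times the next list, at least 2 markers detected). The gate was settled after looking at cells, not at member values. Counts were summed per library and type (at least 20 cells) and tested with edgeR 4.0.16 (quasi-likelihood, TMM, filterByExpr, all 4 groups in a fit, Benjamini-Hochberg adjusted p under 0.05). Comparisons between types, subsets and cells with or without Ifit3 had the library as a block. Scripts were tested on simulated data.

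The members and lists were chosen with earlier results of these data known. Named were Isg15, Irf7, Ifit3, Mx1, Rsad2, Gbp2 and Eif2ak2, the 6 members highest in macrophages/microglia, up to 10 called members in each direction of a comparison (3 for cell types), and pathway genes called, up to 5 in each direction. Alternatives were DESeq2 1.42.0, library size scaling, no count filter, other cell filters and gates, the 2 groups alone, a replicate block, other thinning depths and each library left out. Tests within subsets and without cells holding neutrophil markers were added after seeing the data.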

Additional observations from a re-analysis of the deposited data

How the results depend on the processing

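Named genes, and not every member, were followed through the settings. Single genes kept their direction and side of the threshold in 801 comparisons under other settings and in 974 with a library left out. In 105 and 178 the call was lost, in 34 and 6 it was gained, and in 12 and 9 the sign changed. The cause was not tested for any of these. With 2 libraries a group, counts of calls were the least stable values. In macrophages/microglia the members called against sham numbered 10 in the mild, 5 in the moderate and 5 in the severe group. They numbered 17, 16 and 14 with DESeq2, 20, 17 and 20 with no filter on low counts, 12, 4 and 18 with library size only, 0, 0 and 1 with only the 2 groups compared, 3, 0 and 2 in microglia-type cells and 0, 0 and 2 in monocyte-derived-type cells. With a library left out they ranged from 0 to 12, 0 to 8 and 1 to 7. Calls over all genes moved as well, from 1056, 406 and 1244 to 2339, 1491 and 2466 with DESeq2, to 2655, 2011 and 2763 with no filter, to 951, 319 and 2673 with library size only. Fits of a single pair of groups called 0, 0 and 206 genes. Severe against mild had 2 members called, and 8 with DESeq2, 4 with library size only, 7 with no filter, 4 in microglia-type and 5 in monocyte-derived-type cells, and 0 to 6 with a library left out. Severe against moderate had 1, and 5 with DESeq2, 3 with library size only, 9 with no filter, 2 in monocyte-derived-type cells, and 0 to 3 with a library left out. Moderate against mild had 0, and 4 with no filter. For severe against mild, the 4 members in microglia-type cells were higher, where 200 of 10363 genes were called. In monocyte-derived-type cells 3 were higher and 2 lower, where 831 of 12461 genes were called. For severe against moderate, 1 was higher and 1 lower in those cells, where 669 genes were called. Counts given without the calls over all genes describe only how far the member calls moved.

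The labels do not say whether the replicate numbers pair the libraries. The correlations of deviations between same-numbered libraries ran from -0.228 to 0.247, which cannot settle it with 2 libraries a group. With a replicate block the members called against sham in macrophages/microglia were 4 in the mild, 3 in the moderate and 4 in the severe group, and 4 for severe against mild. The block gave 0 (mild) and 1 (severe) in oligodendrocyte precursors, and 0 for both in oligodendrocytes. The counts with the block are given without the share over all genes, so they describe only how far the calls moved.

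The counts of precursors and oligodendrocytes under other settings, too, are given without the share over all genes. They describe only how far the calls moved. In oligodendrocyte precursors the mild, moderate and severe counts were 1, 3 and 3. The mild and severe counts were 7 and 5 with DESeq2, 0 and 5 with library size only and 3 and 6 with a mitochondrial limit of 20%, and the mild count was 2 with no doublet removal or a stricter gate. No filter gave 9, 8 and 8, and leaving out a library gave 0 to 7, 0 to 9 and 0 to 9. In oligodendrocytes the counts were 2, 4 and 2. They were 0 (mild) and 1 (severe) with DESeq2, 2 (moderate) with library size only, 1, 2 and 0 with a mitochondrial limit of 20%, 2 (moderate) and 1 (severe) with no doublet removal, 15, 17 and 13 with no filter, and 0 to 9, 0 to 10 and 0 to 6 with a library left out. Against macrophages/microglia, library size only gave 9 members called in B cells (5 in the report) and 34 in erythroid cells (11), and a minimum of 100 cells gave 9 in conventional dendritic cells (14). Cells with Ifit3 had 32 of 35 tested members called with no thinning (125 of 9412 genes) and 12 of 17 at 1000 UMIs (79 of 3201 genes), against 21 of 25 (91 of 4522 genes), so fewer members were tested at 1000 UMIs. Each of these counts passed through the same count filter, with the 2 sides as groups. The mean share of cells with several response UMIs was 10.3% in sham, 1.43% in mild and 2.82% in severe. With a limit of 10 UMIs it was 4.36%, 0.487% and 0.733%, and at 1000 UMIs with a limit of 3 it was 1.98% in mild and 3.56% in severe. The mean sum of the 37 members was 2187, 1045, 1129 and 1302 CPM in sham, mild, moderate and severe, and 901, 351, 367 and 378 without the interferon-gamma type genes, Bst2 and Ifi27.

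Members that were not followed through the settings could differ in sign between fits too. For mild against sham, Zbp1 was -1.74 without sham replicate 1 and 0.054 without sham replicate 2. Parp9 was -0.23 and 0.55 in the same fits. Among the named genes that were followed, log2 fold changes that changed sign in macrophages/microglia were these. For moderate against mild, leaving out a library gave Ifit3 from -0.79 to 0.37 (without mild replicate 1) and Rsad2 from -0.12 (without moderate replicate 1) to 2.06. For severe against mild, library size only gave Irf7 -0.090, Eif2ak2 -0.23 and Mx1 -0.074. Mx1 was -0.28 in monocyte-derived-type cells and ran from -0.080 (without severe replicate 2) to 0.62. For severe against moderate, Rsad2 was 0.29 with no doublet removal and 0.38 in microglia-type cells, and ran from -1.08 to 1.09 (without moderate replicate 1), with 0.13 without severe replicate 1. Gbp2 was -0.054 in monocyte-derived-type cells. For mild against sham, Gbp2 was 0.070 in microglia-type cells and ran from -1.22 to 0.18 (without sham replicate 2). For moderate against sham, Gbp2 was 0.92 in microglia-type cells and ran from -0.63 to 0.79 (without sham replicate 2), with 0.22 without moderate replicate 1, and Eif2ak2 was 0.11 in monocyte-derived-type cells. For severe against sham, Usp18 was -0.56 in microglia-type cells, Gbp2 -0.12 in monocyte-derived-type cells, and Ifit3 ran from -1.77 to 0.25 (without severe replicate 1).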
